A study of Mus musculus with 17 samples.

Results

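The genes described here are 4 granzymes (Gzma, Gzmb, Gzmk and Gzmm), the pore-forming protein perforin (Prf1), and Cdc20b and Gpx8, which lie beside Gzma on mouse chromosome 13. These 7 genes, of 24594 in the count tables, were picked by symbol, and the pick was made with their differences between knockout and control libraries already known. All 7 passed the filter on low counts. Their knockout-minus-control differences are therefore given as a description, with no test. Tests are given for the differences between knockouts, for relations between members across libraries and for other genes of the same pathway.

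RNA was sequenced from spleen CD8 T cells whose genotype field reads CD8+Thy1.1+, where Thy1.1 is a congenic marker used to trace transferred or donor cells. The labels name 4 groups by genetic modification: Rosa KO with 5 libraries, taken here as the control because Rosa26 is a locus commonly used for that, and Tet2 KO, Dnmt3a KO and Asxl1 KO with 4 libraries per group, 17 in all. Asxl1 is a cofactor of the Polycomb deubiquitinase, Dnmt3a a de novo DNA methyltransferase and Tet2 an enzyme that oxidises 5-methylcytosine. The labels give no age, time point, knockout method or further allele, and do not say whether replicates came from separate animals, so the p-values reflect no more than library-to-library spread, part or all of which may be technical. The number after a group name is the replicate number of the labels.

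Killer T cells store granzymes, a family of serine proteases, in acidic granules together with perforin. When the granules are released at the contact with a target cell, perforin opens the target's membrane and the granzymes enter its cytosol. Granzyme B cleaves caspases and their substrates, granzyme A is a tryptase-like protease that can cleave gasdermin B, and granzyme K is a related tryptase common in memory-like CD8 T cells. Granzyme M prefers to cut after methionine or leucine and is best known from NK cells. Cdc20b is a relative of the mitotic activator Cdc20, known from multiciliated cells, and Gpx8 is a peroxidase of the endoplasmic reticulum; neither is a granule protein. In whole-population RNA such as this, fewer cells of a type and less RNA per cell cannot be told apart.

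Depth was lowest in Rosa KO 5, at a total count of 6625833, and highest in Rosa KO 4, at 40701203 (median over libraries 21642477). The 8 pan T cell and CD8 markers were present in every group, with summed levels of 4485 to 11690 CPM (counts scaled to a common library total). The targeted transcripts were not lower in their own groups: Asxl1 stood at 105 ± 33.2 CPM (SD, n = 4) in Asxl1 KO against 103 ± 32.8 (n = 5) in Rosa KO, Dnmt3a at 87.7 ± 19.4 against 64.8 ± 27, and Tet2 at 181 ± 64.3 against 161 ± 20.1. A count per gene does not show a small edit, so these levels check no label, and every direction below rests on the labels. The library numbers in the labels form 3 separated runs, which the labels do not call batches. Run 1 is made up of Asxl1 KO 1, Dnmt3a KO 1, Dnmt3a KO 2 and Rosa KO 1, and run 2 of Asxl1 KO 2, Dnmt3a KO 3, Dnmt3a KO 4, Tet2 KO 1 and Tet2 KO 2. The other 8 libraries, Rosa KO 2 to 5 with replicates 3 and 4 of Asxl1 KO and of Tet2 KO, are in run 3. The run was a term of the fit, since Rosa KO has no library in run 2, Dnmt3a KO none in run 3 and Tet2 KO none in run 1.

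Gzma (gene 14938) lies on the minus strand of chromosome 13, at 113093824 to 113100981 of GRCm38.p6, the build also called mm10. Gzmk (gene 14945), on the same strand, starts 80.0 kb from the Gzma start, at 113171630 to 113180965. Cdc20b (gene 238896) runs on the opposite strand. RefSeq gives it a span of 113034975 to 113121019, which covers the 7158 bases of Gzma, whereas GENCODE M21 ends it at 113091195, with a gap of 2629 bases to Gzma. Gpx8 (gene 69590, 113042757 to 113046430, minus strand) lies wholly inside Cdc20b in both annotations. No exon of Cdc20b overlaps an exon of Gzma or Gpx8 in GENCODE M21. Which annotation and strand setting the counting used is not given in the sources used here, so reads of Gzma, Gpx8 and Cdc20b may not be fully separated. Gzmb (gene 14939) lies on chromosome 14 at 56258836 to 56262334, Gzmm (gene 16904) on chromosome 10 at 79689020 to 79695261, and Prf1 (gene 18646) on chromosome 10 at 61297751 to 61304684.

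**Figure D1:**
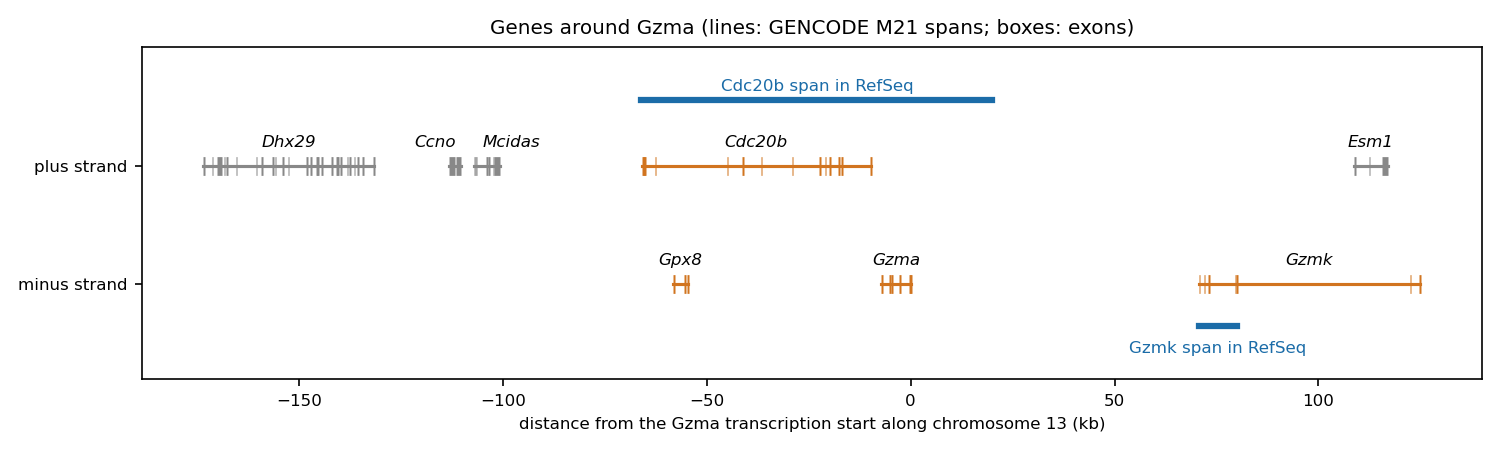
Genes around Gzma by distance from its start along chromosome 13 (x axis, kb) and strand (y axis). Thin lines are GENCODE M21 spans, boxes are exons, orange marks the genes described here and grey their neighbours; the blue bars are RefSeq spans, and the RefSeq span of Cdc20b passes over Gzma.

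The upstream sequences of Gzma, Gzmk and Gzmb are shown because the first 2 share a region of chromosome 13 and Gzma and Gzmb are the 2 most abundant members. Each is the 250 bases before the start in RefSeq's GRCm38.p6 annotation, 5′ to 3′ on the gene's strand. Capitals mark matches, on either strand, to the letters searched for: TGTGGT (Runx), GGTGTGA (T-box), CACCTG (the E-box that Zeb factors bind), TGANTCA (AP-1) and TTCNNNGAA (STAT). The coordinates are chr13:113100982-113101231 for Gzma, chr13:113180966-113181215 for Gzmk and chr14:56262335-56262584 for Gzmb, all on the minus strand.
Gzma: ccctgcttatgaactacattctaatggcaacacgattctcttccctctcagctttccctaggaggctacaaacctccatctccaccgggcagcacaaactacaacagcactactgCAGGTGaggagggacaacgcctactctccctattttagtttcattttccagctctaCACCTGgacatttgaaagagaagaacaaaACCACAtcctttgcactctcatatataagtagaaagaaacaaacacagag
Gzmk: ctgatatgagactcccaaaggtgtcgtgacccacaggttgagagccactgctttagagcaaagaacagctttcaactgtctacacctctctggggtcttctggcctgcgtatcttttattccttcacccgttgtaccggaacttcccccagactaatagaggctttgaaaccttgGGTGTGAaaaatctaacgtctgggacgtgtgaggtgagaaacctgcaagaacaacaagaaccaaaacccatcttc
Gzmb: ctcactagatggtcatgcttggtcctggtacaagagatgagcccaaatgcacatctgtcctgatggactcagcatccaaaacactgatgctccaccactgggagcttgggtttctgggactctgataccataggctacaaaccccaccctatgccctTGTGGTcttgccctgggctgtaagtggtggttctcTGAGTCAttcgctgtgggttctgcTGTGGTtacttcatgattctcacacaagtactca

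The Gzma window holds 2 Zeb E-box matches, 135 to 130 and 79 to 74 bases before the start, and 1 Runx match 50 to 45 bases before it. Of 32851 RefSeq windows of the same length, 17.2% hold a Zeb E-box match and 14% a Runx match. The Gzmk window holds a single T-box match, 75 to 69 bases before the start, which 3.33% of windows have. The Gzmb window holds Runx matches 93 to 88 and 34 to 29 bases before the start with an AP-1 match between them, 58 to 52 bases before the start (AP-1 is in 6.75% of windows). The Prf1 window also has a Runx and a Zeb E-box match, the Gpx8 window a STAT match (7.02% of windows), and the Cdc20b window none of the 5. The Cdc20b window (113035129 to 113035378) lies wholly inside the RefSeq span of that gene. It is therefore not the sequence before the first base of that span. The Prf1 and Gpx8 windows also reach partly into the RefSeq spans of their genes. A match is a description of the letters, not evidence of binding. The windows also differed in CG dinucleotides, the substrate of Dnmt3a and Tet2: 1 in Gzmb, 3 in Gzma, 4 in Prf1, 6 in Gzmk, 10 in Gpx8 and 18 in Cdc20b, against a median of 6 over all windows (quartiles 2 and 16). DNA methylation was not measured here.

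Scaled by exon length, Gzma was the most abundant member in the control, at 2200 ± 393 CPM per kb (SD, n = 5 Rosa KO libraries). Gzmb followed at 1180 ± 167, Gzmk at 324 ± 94.6 and Prf1 at 128 ± 27.3 CPM per kb. These 4 genes did not overlap each other in the control: the lowest Gzma library (1740) lay above the highest Gzmb library (1460), the lowest Gzmb (1040) above the highest Gzmk (482), and the lowest Gzmk (234) above the highest Prf1 (165). Cdc20b (8.86 ± 5.3), Gpx8 (6.87 ± 5.93) and Gzmm (3.54 ± 1.7 CPM per kb) were far lower, and their library ranges overlapped. Granzyme transcripts in these cells were thus mostly Gzma and Gzmb.

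Gzma, the tryptase-like granzyme, stood at 2600, 2140, 2640, 1750 and 1940 CPM in Rosa KO 1 to 5 and at 749, 561, 588 and 671 CPM in Asxl1 KO 1 to 4. It stood at 1280, 1410, 651 and 1030 CPM in Dnmt3a KO 1 to 4 and at 1860, 2180, 1780 and 1450 CPM in Tet2 KO 1 to 4. Every Asxl1 KO and Dnmt3a KO library lay below every Rosa KO library, while the Tet2 KO range overlapped the control. Only Dnmt3a KO 3 came down into the Asxl1 KO range. The fitted log2 difference from Rosa KO (± SE) was −1.81 ± 0.17 in Asxl1 KO, a 3.51-fold lower level, −1.19 ± 0.19 in Dnmt3a KO (2.28-fold) and −0.20 ± 0.17 in Tet2 KO. Inside the runs that hold both groups, the differences were −1.78, −0.95 and −0.40, the second of them against the single Rosa KO library of run 1.

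Gzmb, the caspase-cleaving granzyme, stood at 1720, 1560, 2090, 1490 and 1580 CPM in Rosa KO 1 to 5 and at 1150, 710, 1180 and 1010 CPM in Asxl1 KO 1 to 4. Its values were 888, 861, 587 and 723 CPM in Dnmt3a KO 1 to 4 and 900, 953, 1550 and 1300 CPM in Tet2 KO 1 to 4. Again no Asxl1 KO or Dnmt3a KO library reached the control range. In Tet2 KO the libraries split by run: replicates 1 and 2 of run 2 lay well below the control, replicate 4 lay below it too, and replicate 3 lay inside it. The log2 differences from Rosa KO were −0.61 ± 0.13, −0.87 ± 0.15 and −0.27 ± 0.14 in Asxl1, Dnmt3a and Tet2 KO, and −0.62, −0.97 and −0.24 inside shared runs, smaller than those of Gzma in Asxl1 KO. Whether Gzma and Gzmb differ in their response was not tested.

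Gzmk, which shares the region of Gzma, showed another pattern. Its values were 669, 434, 444, 378 and 325 CPM in Rosa KO 1 to 5, 700, 365, 696 and 654 CPM in Asxl1 KO 1 to 4, 464, 566, 248 and 336 CPM in Dnmt3a KO 1 to 4 and 450, 529, 486 and 414 CPM in Tet2 KO 1 to 4. All 3 knockout ranges overlapped the control. In Asxl1 KO, 3 libraries lay near 700 CPM and Asxl1 KO 2, the library of run 2, lay apart from them. The log2 differences from Rosa KO were 0.47 ± 0.17, −0.22 ± 0.20 and 0.34 ± 0.18 in Asxl1, Dnmt3a and Tet2 KO, and 0.57, −0.38 and 0.18 inside shared runs.

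Gzmm was barely present, at 0.722 to 9.25 CPM over the 17 libraries. Its group means were 5.21 ± 2.5 CPM (n = 5) in Rosa KO, 5.61 ± 1.29 in Asxl1 KO, 2.52 ± 2.49 in Dnmt3a KO and 4.49 ± 3.35 in Tet2 KO (n = 4 each), and all ranges overlapped.

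Prf1, the pore that lets granzymes in, stood at 426, 301, 385, 284 and 261 CPM in Rosa KO 1 to 5 and at 526, 176, 376 and 407 CPM in Asxl1 KO 1 to 4. It stood at 309, 357, 169 and 237 CPM in Dnmt3a KO 1 to 4 and at 199, 207, 140 and 133 CPM in Tet2 KO 1 to 4. Here Tet2 KO was the group whose libraries all lay below the control. Asxl1 KO reached both above and below the Rosa KO range, and its lowest library was again replicate 2. The log2 differences from Rosa KO were 0.12 ± 0.20, −0.48 ± 0.25 and −0.78 ± 0.24 in Asxl1, Dnmt3a and Tet2 KO, and 0.32, −0.36 and −1.18 inside shared runs. The Asxl1 KO value changed sign in 2 of 17 alternative fits.

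Cdc20b, the neighbour on the opposite strand, stood at 11.3, 16.2, 32.2, 6.57 and 14.7 CPM in Rosa KO 1 to 5. In Asxl1 KO 1 to 4 it was nearly gone, at 0.123, 0.518, 0.0903 and 0.439 CPM, which are 2, 10, 2 and 8 counts. It stood at 1.14, 4.08, 3.95 and 4.76 CPM in Dnmt3a KO 1 to 4 and at 13.6, 17.7, 3.62 and 1.89 CPM in Tet2 KO 1 to 4. Asxl1 KO and Dnmt3a KO lay wholly below the control and apart from each other, and in Tet2 KO the 2 libraries of run 2 were inside the control range and the 2 of run 3 below it. The log2 differences from Rosa KO were −6.28 ± 0.81 in Asxl1 KO, −2.99 ± 0.78 in Dnmt3a KO and −1.98 ± 0.75 in Tet2 KO. Inside shared runs they were −6.15, −2.12 and −2.67, and with no run term the Tet2 KO value was −0.81.

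Gpx8, which lies inside Cdc20b, stood at 4.83, 3.80, 17.1, 9.05 and 1.21 CPM in Rosa KO 1 to 5 and at 1.11, 0.0518, 0.316 and 0.494 CPM in Asxl1 KO 1 to 4 (18, 1, 7 and 9 counts). It stood at 3.04, 1.12, 2.98 and 10.6 CPM in Dnmt3a KO 1 to 4 and at 10.8, 17.8, 2.51 and 2.5 CPM in Tet2 KO 1 to 4. Asxl1 KO lay below the control, with its highest library just under the lowest Rosa KO library, and the other 2 knockouts overlapped it. The log2 differences from Rosa KO were −4.13 ± 1.02, −1.95 ± 1.13 and −0.99 ± 1.04 in Asxl1, Dnmt3a and Tet2 KO. Inside shared runs they were −3.67, −1.21 and −1.65, and the Tet2 KO value turned to 0.22 with no run term.

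**Figure D2:**
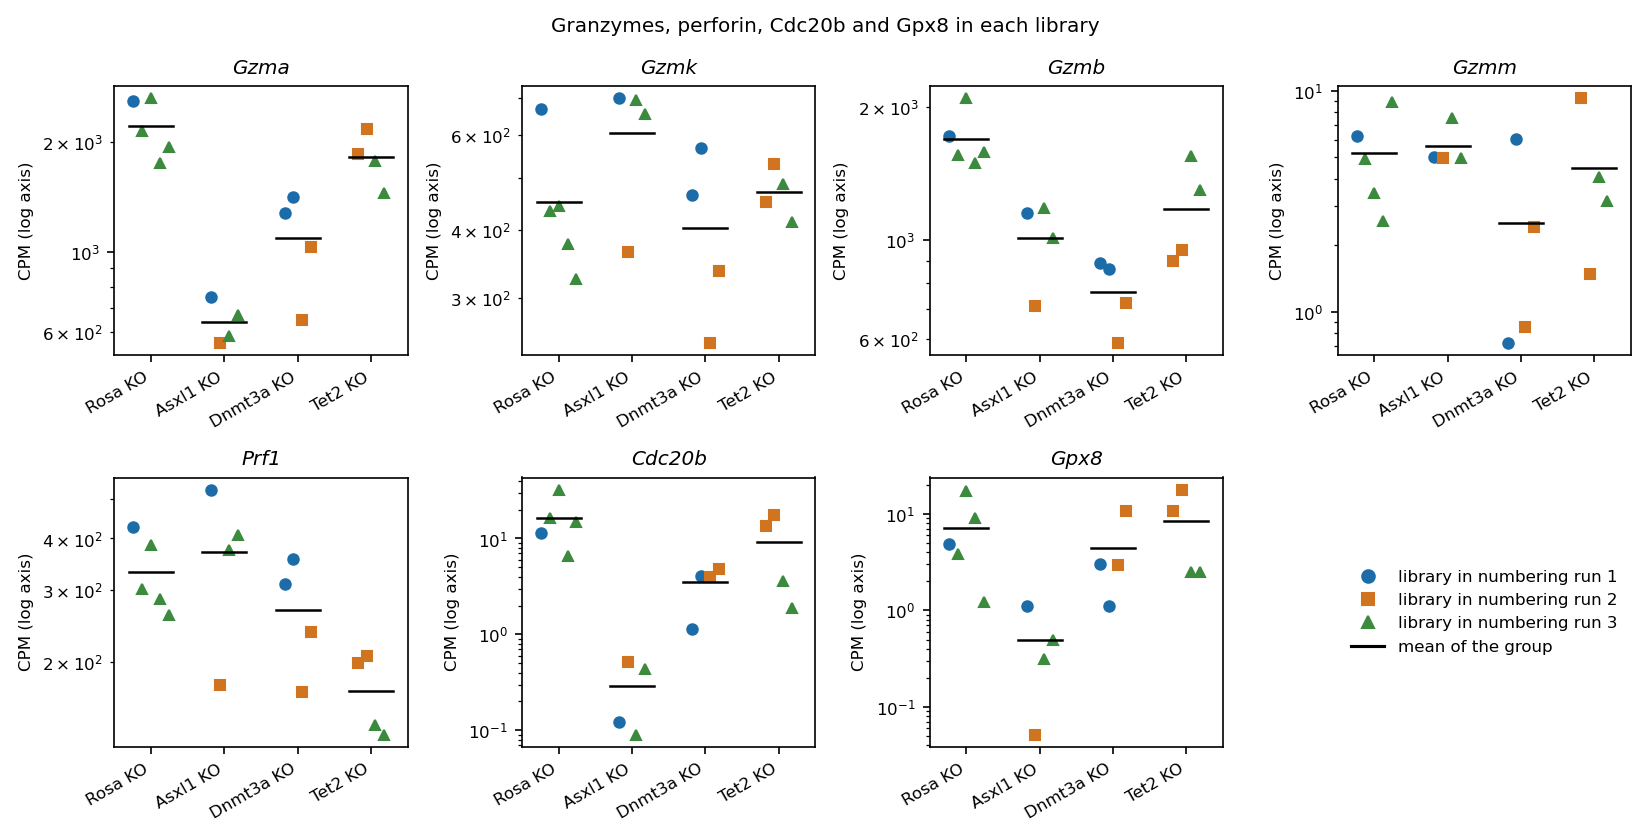
CPM of each gene (y axis, log scale, 1 panel per gene with its own range) in the 17 libraries by group (x axis). Points are libraries, coloured and shaped by numbering run, and bars are group means. Gzma and Cdc20b show the gap between Asxl1 KO and Rosa KO, Prf1 the low Tet2 KO libraries, and Gzmk 3 high Asxl1 KO libraries with 1 at 365 CPM.

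Counted over the 7 genes, 4 lay below Rosa KO without overlap in Asxl1 KO (Gzma, Gzmb, Cdc20b and Gpx8), beside 1.4% of 13881 tested genes. Dnmt3a KO had 3 such members (Gzma, Gzmb and Cdc20b), beside 2.01%, and Tet2 KO 1 such member (Prf1), beside 1.38%. No member lay above Rosa KO without overlap, beside 1.38%, 2.02% and 1.43% of tested genes in Asxl1, Dnmt3a and Tet2 KO. Nothing is read from these counts, since the genes were picked on this contrast. The 3 comparisons share the same control libraries.

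**Figure D3:**
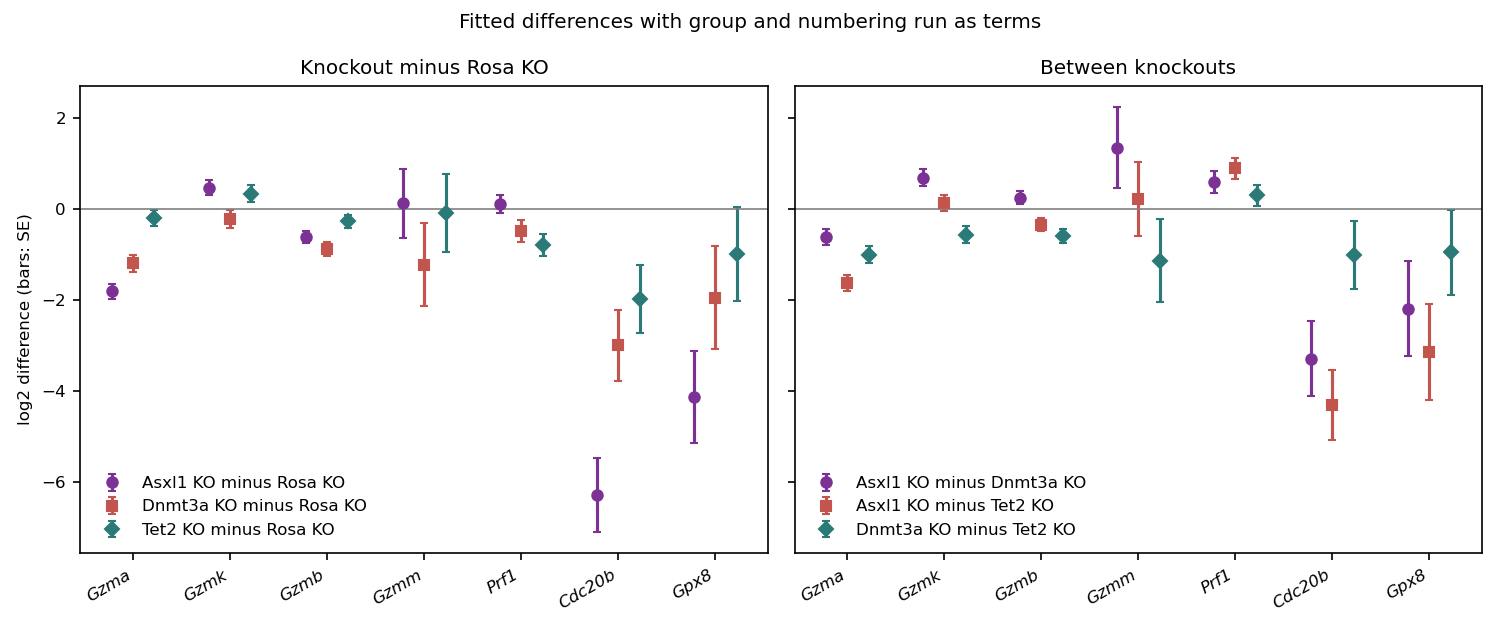
Fitted log2 difference (y axis, points, bars ± SE) of each gene (x axis) for each knockout minus Rosa KO (left) and between knockouts (right). In the left panel Gzma, Cdc20b and Gpx8 stand lowest in Asxl1 KO, and Prf1 lowest in Tet2 KO.

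Between knockouts, the members separated mainly by Gzma and Cdc20b, and Asxl1 KO was the lowest group for both. The tests below are edgeR's quasi-likelihood test with Benjamini-Hochberg adjustment over the 13881 tested genes. The members were picked with the differences of these same libraries from Rosa KO known. The p-values of these tests are therefore not independent of that pick. Gzma was lower in Asxl1 KO than in Tet2 KO by −1.62 ± 0.17 on the log2 scale (3.06-fold, adjusted p = 8.5e-06), with all 4 Asxl1 KO libraries below all 4 of Tet2 KO. Cdc20b was lower as well, by −4.30 ± 0.77 (adjusted p = 0.00449), again without overlap. Of all tested genes 0.115% were called lower and 0.447% higher in this comparison. Gpx8 was the third member to lie lower without overlap, which 1.47% of tested genes did, while 2.42% lay higher and no member did. The Gzma call held in each of 16 alternative fits, with a largest adjusted p of 0.00576, and within the runs that hold both groups the difference was −1.56 (0.00161). The Cdc20b call was lost in a fit with only the libraries of these 2 groups (adjusted p = 0.0669). The Gpx8 difference of −3.14 ± 1.06 did not pass (adjusted p = 0.376), nor did that of Prf1, which pointed the other way at 0.90 ± 0.23 (adjusted p = 0.0906). DESeq2 called both (adjusted p = 0.019 and 0.0182), beside 1.58% of all tested genes. Without Asxl1 KO 2 the Prf1 difference passed (1.28, adjusted p = 0.000671), as it did without Tet2 KO 2 (1.02, 0.0452).

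Gzma was also lower in Dnmt3a KO than in Tet2 KO, by −1 ± 0.18 (1.99-fold, adjusted p = 0.0237), with no overlap of the libraries, and 0.072% of genes were called lower and 0.0216% higher in that comparison. This call was less stable: it was lost without Dnmt3a KO 3 (−0.78, adjusted p = 0.272), Dnmt3a KO 4 (−1.09, 0.0584), Tet2 KO 1 (−0.97, 0.075), Tet2 KO 2 (−0.84, 0.118) or Tet2 KO 3 (−0.99, 0.0641). Within run 2, the run that holds both groups, the difference was −1.24 (0.275). Gzmb lay lower without overlap, by −0.59 ± 0.15, and did not pass (adjusted p = 0.174, or 0.0162 by DESeq2, which called 0.771% of all tested genes). These 2 members lay lower without overlap, as 2.48% of tested genes did, and none lay higher, beside 2.8%. The other 5 members had adjusted p-values from 0.621 to 0.986.

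Asxl1 KO and Dnmt3a KO, the groups with low Gzma, were not separated by any member in the edgeR test, although 5 of the 7 had an unadjusted p under 0.05, beside 11% of all tested genes. DESeq2 called 2 of the 7, Gzmk (adjusted p = 0.0404) and Cdc20b (0.000365), beside 2.13% of all tested genes. The log2 difference was −0.62 ± 0.18 for Gzma (adjusted p = 0.172), −3.29 ± 0.82 for Cdc20b (0.091), −2.19 ± 1.05 for Gpx8 (0.445), 0.69 ± 0.19 for Gzmk (0.154) and 0.60 ± 0.24 for Prf1 (0.35). Cdc20b and Gpx8 lay lower in Asxl1 KO without overlap, as 2.36% of tested genes did, and no member lay higher, beside 2.05%. Over all tested genes edgeR called 0.0792% lower and 0.274% higher here. The 95% interval of the Gzma difference ran from −1.01 to −0.23. Without Asxl1 KO 2, Gzmk (0.90, adjusted p = 0.018) and Prf1 (0.97, adjusted p = 0.0133) passed against Dnmt3a KO.

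The 2 neighbours were then set against Gzma itself within each library. Per 1000 Gzma counts, Cdc20b had 3.76 to 12.2 counts in Rosa KO (median 7.55) and 0.154 to 0.924 in Asxl1 KO (0.41). The range was 0.889 to 6.07 in Dnmt3a KO (3.77) and 1.31 to 8.12 in Tet2 KO (4.68). The highest Asxl1 KO ratio, in replicate 2, lay below the lowest Rosa KO ratio, in replicate 4. Since the genes were picked on the contrast of these groups, this is a description with no test. Gpx8 had 0.623 to 6.49 counts per 1000 Gzma counts in Rosa KO and 0.0924 to 1.48 in Asxl1 KO, with 0.794 to 10.3 in Dnmt3a KO and 1.41 to 8.16 in Tet2 KO, so all ranges overlapped the control.

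The ratios were compared between knockouts in 6 two-sided exact permutation tests on the log2 scale, chosen after the values were seen. With 4 libraries against 4 the smallest p these tests can give is 0.0286. Cdc20b relative to Gzma reached it for Asxl1 KO against Tet2 KO (log2 difference −3.14, adjusted p = 0.0857 over the 6 tests), so it did not pass after adjustment. Against Dnmt3a KO the difference was −2.86 (exact p = 0.0571, adjusted 0.0857). Gpx8 relative to Gzma differed by −2.58 and −2.48 in the same 2 comparisons (exact p = 0.0571 in each). Dnmt3a KO and Tet2 KO differed by −0.28 for Cdc20b (exact p = 0.771) and −0.10 for Gpx8 (0.886). Both Tet2 KO libraries of run 2 had higher ratios of both neighbours than both of run 3, and both Dnmt3a KO libraries of run 2 had higher ratios than both of run 1. In Asxl1 KO the library of run 2 had the highest Cdc20b ratio and the lowest Gpx8 ratio of its group. The part of the run in these ratios was not tested.

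**Figure D4:**
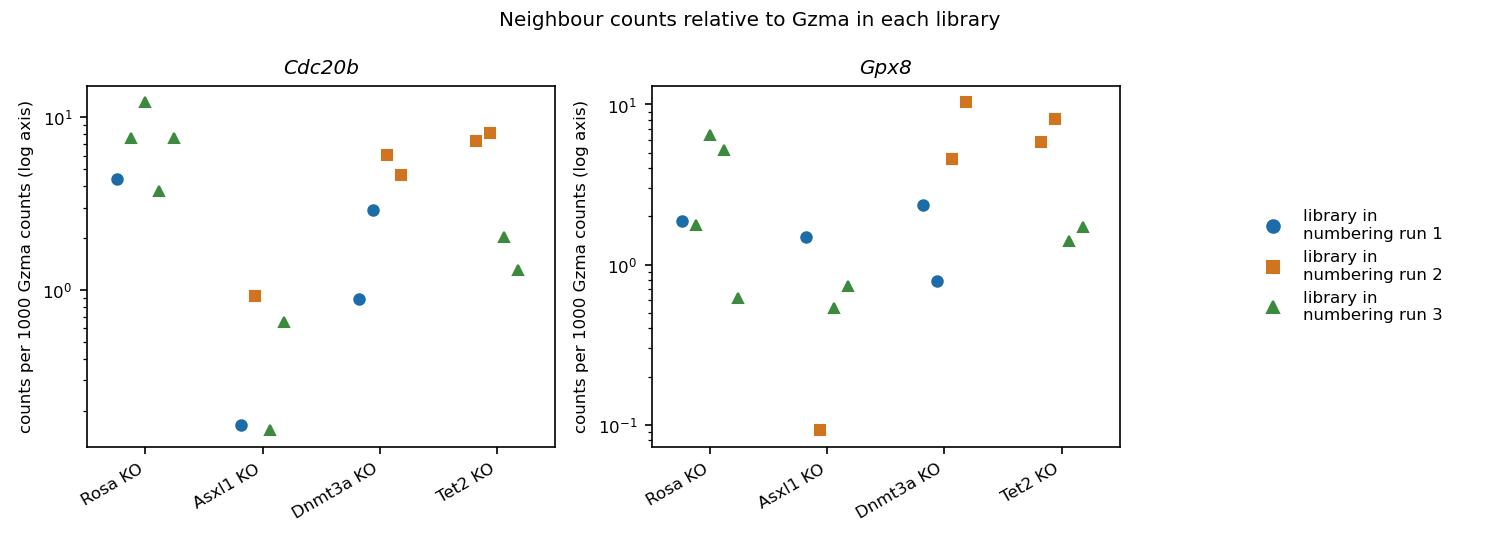
Cdc20b (left) and Gpx8 (right) counts per 1000 Gzma counts (y axis, log scale) in each library by group (x axis), coloured and shaped by numbering run. For Cdc20b the 4 Asxl1 KO libraries lie at 0.154 to 0.924, below all 5 Rosa KO libraries. For Gpx8 they lie at 0.0924 to 1.48 and overlap them.

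Within groups, libraries with more Gzma also had more Gzmk. After group and run were removed from log2 CPM, Gzma and Gzmk correlated at Pearson r = 0.68 and Spearman rho = 0.63 over the 17 libraries (permutation p = 0.00266 and 0.00751, adjusted over 4 pairs 0.00532 and 0.015). Leaving out the 2 libraries farthest from the median of Gzma, Rosa KO 3 and Dnmt3a KO 3, gave r = 0.68, and within the 8 libraries of run 3 r was 0.66. Gzma and Cdc20b correlated at r = 0.78 and rho = 0.75 (permutation p = 0.00023 and 0.0009, adjusted 0.00092 and 0.0036), at r = 0.79 without the same 2 libraries and at 0.93 in run 3. With group alone removed this relation did not hold (r = 0.22, permutation p = 0.404), whereas that of Gzma and Gzmk did (r = 0.80, adjusted p = 0.00044). Gzma and Gpx8 (r = 0.40, rho = 0.45, adjusted permutation p = 0.152 and 0.0933) and Prf1 and Gzmb (r = 0.34, rho = 0.28, adjusted 0.185 and 0.267) did not pass. The permutation treats the 17 residuals as exchangeable, although the fit leaves 11 degrees of freedom, which makes these p-values too small. Values of 1 library share its depth and its mix of cells.

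The neighbourhood of Gzma was read out to 250 kb on either side, which holds 14 genes of the tables, 9 of them tested and 4 of them described above. The other 5 tested genes, Plpp1, Mtrex, Dhx29, Ccno and Esm1, were called in no knockout minus Rosa KO comparison by edgeR or by DESeq2. None had an unadjusted p under 0.05 in edgeR. Of all 13881 tested genes, edgeR called 227, 30 and 204 in Asxl1, Dnmt3a and Tet2 KO, and DESeq2 called 5.69%, 1.43% and 3.64%. The share with an unadjusted p under 0.05 in edgeR was 15.7%, 8.03% and 12.2%. With shares this low, no call among 5 genes says little. The nearest of these 5 genes to Gzmk is Esm1, an endothelial proteoglycan. It lies under the longer GENCODE span of Gzmk, so that their reads may not be fully separated. It had 52.7 ± 21.5 CPM in Rosa KO, 29.8 ± 16.5 in Asxl1 KO (adjusted p = 0.343), 33.6 ± 10.4 in Dnmt3a KO (0.704) and 85.3 ± 36.8 in Tet2 KO (0.772), where the 2 libraries of run 2 stood at 126.6 and 106 CPM. Mtrex and Dhx29, widely expressed RNA helicase genes, differed from Rosa KO by −0.34 to 0.22 on the log2 scale. Ccno and Mcidas, which like Cdc20b belong to the multiciliated cell programme, were at or near 0: Ccno reached at most 61 counts and Mcidas had 0 counts in every library but Tet2 KO 3 (13 counts) and Tet2 KO 4 (1 count). Foxj1 and Deup1, other markers of that cell type, had 0 counts in every Rosa KO library. They reached 0.448 CPM in Dnmt3a KO and 2.39 CPM in Asxl1 KO, respectively. Ccdc78, a further marker, had 0 to 0.596 CPM in Rosa KO and reached 12.6 CPM in Asxl1 KO. The part of multiciliated cells in the Cdc20b levels was not tested. The list of 7 multiciliated cell markers summed to 79.3 to 102 CPM in Rosa KO and to 63.5 to 130.9 CPM over the knockouts, carried by the centriole genes Plk4 and Cep152, which dividing cells use as well. The microRNA genes Mir449a and Mir449b inside Cdc20b had 0 counts in all libraries and Mir449c at most 2, and the long noncoding RNA 1700084D21Rik between Gzma and Gzmk at most 46. Libraries of total RNA are not made to read mature microRNAs.

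The rest of the pathway was read through 6 lists with 74 genes, of which 66 were tested. The lists were chosen with earlier results of these data known, so the calls below are not independent of that choice. In Asxl1 KO 4 rose and 4 fell against Rosa KO (of all 13881 tested genes 0.814% were called higher and 0.821% lower), with a median log2 difference of 0.01 beside 0 over all tested genes. In Dnmt3a KO 1 rose and 2 fell (all genes 0.036% and 0.18%), with a median of −0.13 beside 0. In Tet2 KO 1 rose and 6 fell (0.987% and 0.483%), with a median of −0.15 beside −0.02. The calls lay mostly among the regulators, with 7 of 22 in Asxl1 KO, 2 in Dnmt3a KO and 5 in Tet2 KO. Of the 13 maturation genes only Cst7 in Asxl1 KO was called, and of the 17 tested transport and release genes edgeR called none in any knockout. At an unadjusted p under 0.05 stood 3, 4 and 5 of those 17 in Asxl1, Dnmt3a and Tet2 KO, beside 15.7%, 8.03% and 12.2% of all tested genes. DESeq2 called 0, 2 and 1 of them, beside 5.69%, 1.43% and 3.64% of all tested genes.

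Other proteases of the granzyme clusters were scarce. Gzmd, Gzme, Gzmf, Gzmg and Gzmn had at most 3 counts in any library. Gzmc had 7, 0, 2, 1 and 0 counts in Rosa KO 1 to 5, at most 4 in Asxl1 KO and at most 15 in Dnmt3a KO, against 20, 36, 13 and 40 counts in Tet2 KO 1 to 4. It was thus highest in Tet2 KO, at up to 2.44 CPM, and did not pass (adjusted p = 0.263). Cma1, the mast cell chymase gene of the Gzmb cluster, was named after its values were seen. It stood at 12.6, 15, 29.1, 11 and 22.5 CPM in Rosa KO 1 to 5 and at 7.41 CPM or lower in every one of the 12 knockout libraries. Group means were 2.71 ± 3.28, 1.07 ± 0.838 and 1.06 ± 0.28 CPM in Asxl1, Dnmt3a and Tet2 KO against 18 ± 7.6 in Rosa KO, and the differences did not pass (adjusted p = 0.128, 0.346 and 0.105). Of all tested genes, 1.4%, 2.01% and 1.38% lay below Rosa KO without overlap in Asxl1, Dnmt3a and Tet2 KO. Of the 3 tested genes of this list, DESeq2 called 1 in Asxl1 KO, 0 in Dnmt3a KO and 1 in Tet2 KO. Beside these stood DESeq2 calls for 5.69%, 1.43% and 3.64% of all tested genes. The mast cell and basophil list summed to 0.752 to 10.7 CPM in Rosa KO and to 1.85 to 15.8 CPM over the knockouts. Its genes went both ways. Mcpt8 had its highest group mean in Rosa KO (1.72 CPM), and Cpa3 and Ms4a2 had theirs in Dnmt3a KO (3.26 and 3.81 CPM). The chymase Mcpt4 was at 0 in Rosa KO and reached at most 0.0549 CPM in any library. The part of mast cells and basophils in the Cma1 levels was not tested.

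Among the maturation genes, Cst7, which encodes cystatin F, an inhibitor of the cathepsins that activate granzymes, stood at 236, 180, 171, 183 and 228 CPM in Rosa KO 1 to 5 and at 331, 148, 396 and 421 CPM in Asxl1 KO 1 to 4. It rose by 0.86 ± 0.16 (adjusted p = 0.00334), with Asxl1 KO 2 below the control range and the other 3 above it, and it did not pass with no run term (0.70, adjusted p = 0.397). Named after their values were seen, Ctsc, the cathepsin that activates granzymes, differed by 0.03, 0 and −0.11 in Asxl1, Dnmt3a and Tet2 KO, and the granule protein Nkg7 by 0.53, −0.13 and 0.29, none passing. Serpinb9, the inhibitor with which killer cells guard against their own granzyme B, stood at 276, 193, 320, 274 and 265 CPM in Rosa KO 1 to 5 and at 135, 156, 166 and 126.7 CPM in Tet2 KO 1 to 4. It fell there by −0.74 ± 0.18 (adjusted p = 0.0356) without overlap. That call was lost in 10 alternative fits, among them no run term (0.12), the fit without Tet2 KO 3 (0.195) and the fit without Tet2 KO 4 (0.264). In Dnmt3a KO, at 114 to 166 CPM, all libraries also lay below the control, and the difference of −0.88 did not pass in edgeR (adjusted p = 0.062) and did in DESeq2 (0.00197). In Asxl1 KO it was −0.44 (0.18).

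Fasl, the death ligand that kills by a granule-independent route, stood at 257, 308, 326, 327 and 311 CPM in Rosa KO 1 to 5. It lay between 130 and 143 CPM in the 4 Dnmt3a KO libraries and at 139, 153, 128 and 88 CPM in Tet2 KO 1 to 4, all below the control. It fell by −1.15 ± 0.20 in Dnmt3a KO (adjusted p = 0.0051) and by −1.27 ± 0.19 in Tet2 KO (0.000415), whereas Asxl1 KO, at 249.1, 203, 265 and 291 CPM, overlapped the control (−0.27 ± 0.16, adjusted p = 0.439). Against Asxl1 KO itself, Fasl was higher in Asxl1 KO than in Dnmt3a KO by 0.88 ± 0.18 (adjusted p = 0.034) and than in Tet2 KO by 1 ± 0.18 (0.00418). The first of these calls was lost in 12 of 16 alternatives, 7 of which each left out 1 library, Asxl1 KO 1 (0.86, adjusted p = 0.125), Asxl1 KO 3 (0.86, 0.0695), Asxl1 KO 4 (0.83, 0.0668) or any one of Dnmt3a KO 1 to 4 (0.84 to 0.92, 0.0634 to 0.13). The second was lost in 2, with only these 2 groups (1.01, 0.0617) and within their shared runs (1.01, 0.0587). The Dnmt3a KO call against Rosa KO was lost with only those 2 groups (−0.88, adjusted p = 0.105) and with a replicate block as a further term (−1.06, 0.722). Within run 1, where 2 Dnmt3a KO libraries meet a single Rosa KO library and a test has little power, the Dnmt3a KO difference of Fasl was −0.88. The other 3 death ligands passed in no knockout by edgeR or DESeq2.

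Among the regulators, Zeb2, a repressor that promotes terminal effector cells, stood at 758, 1130, 1110, 1040 and 1370 CPM in Rosa KO 1 to 5 and at 307, 315, 222 and 201 CPM in Asxl1 KO 1 to 4. It stood at 401, 286, 650 and 567 CPM in Dnmt3a KO 1 to 4 and at 536, 830, 290 and 312 CPM in Tet2 KO 1 to 4. Only Tet2 KO 2 reached into the control range. Zeb2 fell by −2.27 ± 0.21 in Asxl1 KO (adjusted p = 4.5e-07), −1.69 ± 0.23 in Dnmt3a KO (0.000421) and −1.67 ± 0.22 in Tet2 KO (0.00011). With no run term the last 2 calls were lost (−1.18, adjusted p = 0.15, and −1.13, 0.186), and within run 1, against its single Rosa KO library, the Dnmt3a KO difference was −1.14. The Dnmt3a KO call was also lost with a replicate block as a further term (−1.5, adjusted p = 0.358).

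Tcf7 encodes TCF1, a transcription factor of naive and memory precursor T cells, and rose by 1.94 ± 0.26 in Asxl1 KO (adjusted p = 8.63e-05), 1.79 ± 0.31 in Dnmt3a KO (0.0051) and 1.95 ± 0.27 in Tet2 KO (0.000268), and passed in none of them with no run term (2.12, 2.18 and 1.44, adjusted p = 0.188, 0.183 and 0.723). In Dnmt3a KO the difference was 0.93 with only the 2 groups (adjusted p = 0.483) and 0.93 within run 1, against its single Rosa KO library. Eomes, a T-box activator of Prf1 and granzyme genes, rose in Asxl1 KO by 1.15 ± 0.19 (0.00128, or 0.0817 with no run term). The repressor Bhlhe40 fell by −1.15 ± 0.16 in Asxl1 KO (0.00022) and −1.20 ± 0.18 in Tet2 KO (0.00044). Il12rb2, a subunit of the receptor for interleukin 12, fell by −2.03 ± 0.39 in Asxl1 KO (0.00502) and −1.65 ± 0.40 in Tet2 KO (0.0346); the first call was lost without Asxl1 KO 3 (adjusted p = 0.052) and the second with no run term (0.0721) and without Rosa KO 2, 4 or 5 or Tet2 KO 1, 3 or 4. The 2 other called regulators, Runx1 and Tox, are named after their values were seen. Runx1, a Runx family factor, fell by −0.76 ± 0.19 in Asxl1 KO (0.0391), and Tox, a factor of exhausted T cells, rose there by 0.56 ± 0.14 (0.0349) and fell in Tet2 KO by −0.65 ± 0.15 (0.0249). Tbx21, which encodes T-bet and was named after its values were seen, passed in none (−0.18, −1.01 and −0.57 in Asxl1, Dnmt3a and Tet2 KO).

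**Figure D5:**
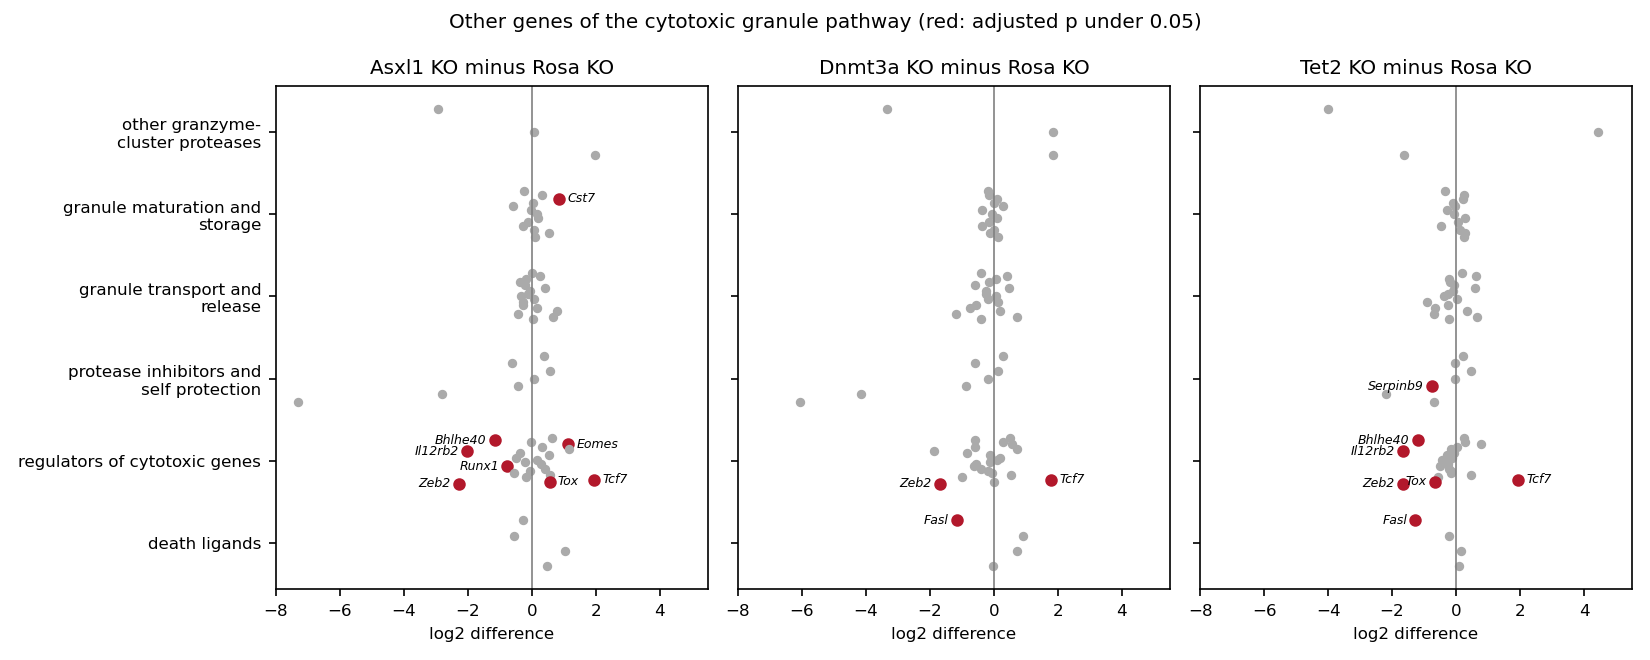
Log2 difference from Rosa KO (x axis) of the 66 tested genes of 6 pathway lists (y axis) in each knockout. Red points passed at an adjusted p under 0.05 and are named, and grey points did not. The calls sit mostly among the regulators, with none in granule transport and release. The lists were chosen with earlier results of these data known.

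Markers of other cell types were read beside these levels. The 8 NK cell markers in the table summed to 477 to 770 CPM in Rosa KO, to 266 to 430 in Asxl1 KO, to 195 to 308 with Dnmt3a KO and to 226 to 373 with Tet2 KO. Klrb1c and Klre1, receptors that effector CD8 T cells can carry too, made up the difference and were the 2 of the 8 called lower in each knockout. Of all tested genes, 0.821%, 0.18% and 0.483% were called lower in Asxl1, Dnmt3a and Tet2 KO. Klrb1c had 108 to 266 CPM in Rosa KO and 5.59 to 39.5 CPM in the knockouts, and Klre1 had a mean of 223 CPM in Rosa KO and of 70, 65 and 120 CPM in Asxl1, Dnmt3a and Tet2 KO. The other 6 passed in no knockout and went both ways. Cd160 had 67.8 CPM in Rosa KO and 115, 35 and 51.3 CPM in the knockouts, and Fcer1g 46.9 CPM and 51.3, 48.1 and 44 CPM. Klra8 had 4.75 CPM in Rosa KO and 2.4, 2.76 and 4.81 CPM in the knockouts, and Tyrobp 79.4 CPM and 61.1, 80.2 and 59.6 CPM. Ncr1, the defining receptor of NK cells, stayed between 0 and 10.6 CPM in all libraries, with means of 1.85 CPM in Rosa KO and 0.409, 4.27 and 1.1 CPM in the knockouts. No marker of the 8 was at 0 across a group.

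In Dnmt3a KO the 4 CD4 T cell markers summed to 72.64 to 112.9 CPM against 15.05 to 45.93 CPM in Rosa KO, without overlap, and to at most 50.16 CPM in the other knockouts. Cd4 itself had a mean of 69.7 CPM there against 8.6 CPM, and did not pass (adjusted p = 0.398). The rest of that list went both ways and did not pass either. Foxp3 had a higher mean (5.16 against 1.38 CPM), and Zbtb7b (15.4 against 22.8 CPM) and Cd40lg (0.977 against 1.1 CPM) lower ones. In Asxl1 KO the 10 B cell markers summed to 581.8 to 1151 CPM, below 4 of the 5 Rosa KO libraries (2558 to 2762 CPM) and above Rosa KO 1 (493.6 CPM), with a median log2 difference of −0.97. The 6 plasma cell markers summed to 224.7 to 299.5 CPM in Asxl1 KO against 355.3 to 641 CPM in Rosa KO, without overlap. None of the 5 tested was called. Their sums reached lower in Dnmt3a KO (149.9 to 579.8 CPM) and Tet2 KO (39.3 to 526.2 CPM). Cd3d and Cd3g of the 8 pan T cell and CD8 markers rose in Asxl1 KO by 0.79 ± 0.16 (adjusted p = 0.00869) and 0.83 ± 0.15 (0.00432). Among all tested genes 0.814% were called higher there and 0.987% in Tet2 KO, where Cd3d rose too (0.68 ± 0.17, adjusted p = 0.0405). Cd3d spanned 266 to 809 CPM in Asxl1 KO and 315 to 440 CPM in Rosa KO, and Cd3g overlapped as well. B cell markers spanned 578.8 to 2138 CPM in Dnmt3a KO and 124.3 to 2424 CPM in Tet2 KO, and with their mean as a covariate the Gzma difference from Rosa KO was −1.89, −1.14 and −0.23 in Asxl1, Dnmt3a and Tet2 KO. Since the B cell sums of Asxl1 KO differed from those of most Rosa KO libraries, that fit cannot separate B cells from the group. The 3 gamma delta T cell markers in the table summed to at most 3.75 CPM. Markers of myeloid cells and neutrophils summed to 524.8 to 1204 CPM in Rosa KO and to 233 to 1189 CPM over the knockouts. Those of erythroid cells and platelets summed to 76.9 to 703.6 CPM in Rosa KO and to 26.95 to 2979 CPM over the knockouts, highest in Asxl1 KO 1. The part of NK, CD4 T, B, plasma, myeloid and erythroid cells in the levels of the granzymes and Prf1 was not tested.

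By likeness over all 17 libraries, the genes closest to each abundant member were different. Of the tested genes, the 9685 that averaged 5 CPM or more were compared. Gzma was most like Crem (Pearson r = 0.849), Rap1b (0.834), Snx5 (0.826), Selenot (0.823) and Ccl9 (0.812). Gzmb was most like Klrb1c (0.855), Nfil3 (0.852), Abt1 (0.844), Cnbp (0.84) and Calm2 (0.83). Prf1 was most like Chsy1 (0.954), Cxcr6 (0.859), Itgb2 (0.857), Smpdl3b (0.842) and Ctsd (0.825). After group and run were removed, r with Gzma was 0.46 (Rap1b) to 0.73 (Crem), and r with Prf1 was 0.59 (Cxcr6) to 0.94 (Chsy1). With Gzmb it was 0.80 for Nfil3, 0.49 for Calm2, 0.39 for Cnbp, 0.15 for Abt1 and −0.20 for Klrb1c. These correlations share library depth and cell mix and are given as a description.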

How the data were processed

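Counts per gene of 24594 genes were deposited by the authors as 1 table per library, with no normalization. Build mm10 and the tools DESeq2 1.26.0 and STAR 2.5.3a are listed, without roles, per the submitters' processing notes. A stranded total RNA kit was used, per the labels' protocols. The members and gene lists were chosen with earlier results of these data known. Genes were keyed by NCBI identifier, of which 24570 matched RefSeq GRCm38.p6.

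Counts were tested with edgeR 4.0.16 in R 4.3.3 (robust quasi-likelihood F test, TMM, group and numbering run, 17 libraries, 11 residual degrees of freedom). filterByExpr (minimum count 10, total 15) left 13881 genes, and p-values were adjusted by Benjamini-Hochberg, with a threshold of 0.05. CPM use TMM-scaled totals, log2 CPM adds 2 counts, and CPM per kb uses GENCODE M21 exon unions. Correlations used 100000 permutations (SciPy 1.17.1). The model was tested on simulated counts, and no outcome of that is given here. No library pair of 1 group agreed within sampling noise (chi-square per degree of freedom 19.7 to 258, 28 pairs).

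Genes named were the 7 members, their neighbours within 250 kb, up to 5 called genes of a list and the 5 most similar genes of Gzma, Gzmb and Prf1; exceptions are marked. Alternatives were no run term, DESeq2 1.42.0, its size factors, no filter, a replicate block, fewer groups or runs, a B cell covariate and leaving out each library.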

Additional observations from a re-analysis of the deposited data

Results flagged for a closer look

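Among 28 sets of values (7 genes in 4 groups), 2 held a library far from the rest of its group, and chance flags about 1 in 20 groups. Gzmk in Asxl1 KO 2 stood at 365 CPM, while the other 3 Asxl1 KO libraries lay between 654 and 700 CPM, so that the gap took a share of 0.863 of the group's range. This is the Asxl1 KO library of run 2, and Prf1 was lowest in it too, at 176 CPM. Gzmm in Asxl1 KO 3 stood at 7.54 CPM, with the other 3 between 4.94 and 5.00 CPM (a share of 0.977), at a level of few counts.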

How the results depend on the processing

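Gzma kept its direction from Rosa KO in all 17 alternatives of each knockout (−1.90 to −1.71 in Asxl1 KO, −1.31 to −0.94 in Dnmt3a KO, −0.40 to −0.05 in Tet2 KO), and so did Gzmb and Cdc20b; Gzmm in Asxl1 KO and Tet2 KO, Prf1 in Asxl1 KO and Gpx8 in Tet2 KO did not. The Gzma difference between Asxl1 KO and Dnmt3a KO passed with no filter on low counts (−0.63, adjusted p = 0.00627), where more genes were tested. That between Dnmt3a KO and Tet2 KO did not pass with no run term (−0.73), with only these 2 groups (−1.24) or within run 2 (−1.24), and lay between −1.09 and −0.78 without 1 library. The correlation of Gzma and Cdc20b fell to 0.22 with group alone removed; the cause was not tested.

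Pathway genes called higher and lower in Asxl1 KO (4 and 4) numbered 0 higher with no run term, 9 higher with no filter and 7 higher by DESeq2, and 3 to 7 higher (7 without Asxl1 KO 2) and 2 to 4 lower (2 without Asxl1 KO 3) without 1 library. In Dnmt3a KO (1 and 2) they numbered 0 and 1 with no run term, 5 lower with no filter, 7 lower by DESeq2, 0 and 1 with only the 2 groups, and 0 and 0 within run 1. In Tet2 KO (1 and 6) they numbered 0 and 2 with no run term, 3 higher with no filter, and 2 higher by DESeq2, with the B cell covariate or within run 3. Without 1 library they numbered 1 to 2 higher (2 without Rosa KO 1) and 3 to 6 lower (3 without Rosa KO 4, Rosa KO 5, Tet2 KO 3 or Tet2 KO 4).

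Replicate numbers did not pair the libraries: deviations of 24 same-numbered pairs correlated at −0.21 to 0.16, and 4 of 16 libraries correlated best with their own number. With the replicate block the Gzma difference between Dnmt3a KO and Tet2 KO was −0.93 (adjusted p = 0.833), and pathway calls numbered 0 higher and 0 lower in Dnmt3a KO and 3 lower in Tet2 KO. Depth limits Cdc20b and Gpx8 in Asxl1 KO, which rest on at most 18 counts per library.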
